A study of Mus musculus with 2 samples.

Results

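Nuclear receptors are transcription factors, most of which bind a small lipid-soluble hormone or metabolite through a ligand-binding domain and DNA through a zinc-finger domain. The family is divided into paralog subgroups, and many of its members bind DNA as a pair with a retinoid X receptor (RXR), while the steroid receptors bind as pairs of themselves after release from a chaperone complex. Without ligand, many members recruit corepressors such as NCOR1; with ligand they recruit coactivators such as the NCOA proteins. In red cell precursors the glucocorticoid receptor is known for its part in stress erythropoiesis, and the testicular receptors TR2 and TR4 (Nr2c1 and Nr2c2) for binding embryonic globin promoters.

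The 46 genes described here are the listed members of the nuclear receptor family, found by gene symbol among the 55536 mouse genes of the deposited gene tables, of which 22028 are protein-coding. They were measured by sequencing of polyadenylated RNA in G1E-ER4, an immortalized male mouse erythroid line derived from cells without Gata1, in which GATA1 activity is returned by a fusion of GATA1 with the ligand-binding domain of an estrogen receptor. Differentiation had been started with 17beta-estradiol, at 10 nM, and the cells were taken after 24 h. There is 1 group of 2 libraries, labelled biological replicates 1 and 2, and no untreated library, so levels and the spread between the libraries are given and no effect of estradiol could be measured. An estrogen receptor sequence was thus part of the system, and its ligand was in the medium of both libraries.

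Expected counts summed to 71485617 in replicate 1 and 14121747 in replicate 2, so that low levels are less certain in replicate 2. A count of 0 allows up to 3 counts, or 0.042 CPM (counts scaled to library size) in replicate 1 and 0.212 CPM in replicate 2, for counting error only. All 8 erythroid marker genes examined (Gata1, Klf1, Tal1, Hba-a1, Hbb-bs, Alas2, Slc4a1 and Tfrc) were at 1 TPM or more in both libraries. None of 12 markers of other cell types was, the highest being at 0.830 TPM. Since the line was derived from cells without Gata1 and carries a GATA1 fusion, the Gata1 level does not bear on cell type. Levels are given as TPM, the authors' scale of transcript abundance corrected for length, and detection means 1 TPM or more in each library. With 2 libraries in 1 group no test between conditions exists, and a difference between the replicates describes these libraries only. In bulk RNA, fewer cells with a transcript and less of it per cell cannot be told apart.

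Of the 46 receptor genes, 11 were detected, against 33.1% of all protein-coding genes. The detected genes were Nr1h2, Rxrb, Ppard, Esrra, Nr2f6, Thra, Nr2c2, Nr3c1, Rara, Nr4a2 and Nr1d2. At 10 TPM or more in both libraries were 6 of them, and 2 were at 100 or more. Of the 35 others, 19 had no counts in either library, 9 had counts in 1 library only, and 7 had counts in both without being called detected. All 46 together summed to 828 TPM in replicate 1 and 1150 TPM in replicate 2. Nr1h2 alone held 65.6% and 55.6% of these sums, the 3 highest genes of each library held 91.0% and 88.9%, and the 35 undetected genes held 0.345% and 0.231%. The median detected receptor gene was at 10.5 and 19.1 TPM, and the median of the 7297 detected protein-coding genes at 20.2 and 15.2 TPM.

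**Figure D1:**
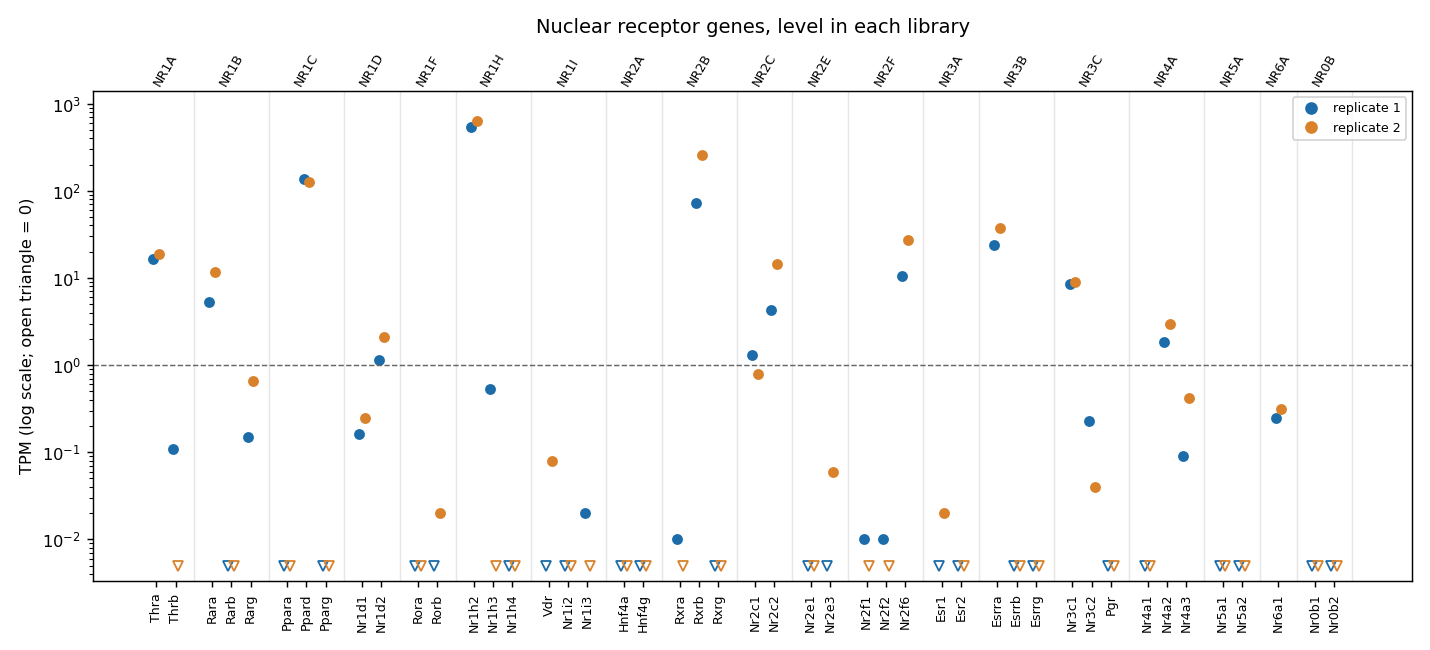
Level of each of the 46 receptor genes in TPM (log scale), grouped by subgroup, with 1 point for each library and open triangles for 0. Above the dashed line at 1 TPM in both libraries stands exactly 1 gene in each of 11 subgroups and none in the other 8.

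The detected genes were spread over the family in a regular way, which was noticed after the values were seen. The 46 genes fall into 19 subgroups of the standard nomenclature, 18 of them with 2 or more genes here. In 11 subgroups exactly 1 gene was detected, and in the other 8 none was. The detected gene carried at least 77.1% of its subgroup's summed TPM in replicate 1 and at least 87.6% in replicate 2, and 90% or more in both libraries in 8 of the 11 subgroups. The lowest share, 77.1% in replicate 1 and 94.8% in replicate 2, belonged to Nr2c2 beside Nr2c1. No gene was detected among the listed members of the ROR (NR1F), VDR and xenobiotic receptor (NR1I), HNF4 (NR2A), TLX and PNR (NR2E), estrogen receptor (NR3A), SF1 and LRH1 (NR5A), GCNF (NR6A) and DAX1 and SHP (NR0B) subgroups. The pattern of 11 subgroups with 1 detected gene was the same with annotation M4, with posterior mean TPM and in the table quantified from reads, although in the last Esr1 took the place of Nr1d2. At 0.5 TPM 12 genes were detected and 10 subgroups had exactly 1, since Nr2c1 joined Nr2c2.

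The retinoid X receptors are shared partners of many NR1 receptors, among them those for thyroid hormone, retinoic acid, fatty acids and oxysterols. Rxrb (chr17:34031812-34038399, plus strand of mm10) measured 73.0 TPM in replicate 1 but 259 TPM in replicate 2 (mean 166 ± 132, SD, n = 2). It was 3.55 times higher in replicate 2, and the authors' posterior intervals, 70.6 to 74.1 and 237 to 251 TPM, were apart. The deposited level in replicate 2 lies above its own interval for Rxrb, and likewise for Nr1h2 (586 to 621 TPM) and Ppard (114 to 123 TPM), so intervals that are apart are a rough guide for these genes. Rxra had 3 counts in replicate 1 and 0 in replicate 2, and Rxrg had none in either library. Rxrb thus held nearly all of the RXR transcript that these tables record.

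Among the partners of RXR, Nr1h2 and Ppard stood far above the rest. Nr1h2 (chr7:44549616-44553951, minus strand), which encodes the oxysterol receptor LXR beta, measured 544 and 639 TPM (mean 591 ± 67.4, SD, n = 2) and ranked 214th among protein-coding genes by mean TPM. Its paralog Nr1h3, LXR alpha, was at 0.53 TPM in replicate 1 and 0 in replicate 2, and the bile acid receptor gene Nr1h4 had no counts. Ppard (chr17:28232700-28301474, plus strand), the widely expressed fatty acid receptor of its subgroup, measured 137 and 125 TPM (mean 131 ± 8.86, SD, n = 2). Ppara and Pparg, the receptors known from liver and fat, had no counts in either library. These 2 detected genes were among the closest between the libraries, at 1.18 and 0.909 times the level of replicate 1 in replicate 2, and their intervals were nevertheless apart.

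Thra (chr11:98740638-98769006, plus strand), the thyroid hormone receptor alpha gene, measured 16.4 and 19.1 TPM (mean 17.8 ± 1.85, SD, n = 2). Thrb was at 0.11 TPM in replicate 1 and 0 in replicate 2. Rara (chr11:98927818-98974942, plus strand), retinoic acid receptor alpha, measured 5.35 and 11.7 TPM (mean 8.53 ± 4.50, SD, n = 2). Rarb had no counts, and Rarg was at 0.15 and 0.66 TPM. For Rarg the posterior mean in replicate 2 was 57.9 TPM with an interval from 0.983 to 170 TPM, on 21 expected counts. Vdr was at 0 and 0.08 TPM, and the xenobiotic receptor genes Nr1i2 and Nr1i3 were at 0.02 TPM or less. Summed over the 14 listed genes of these partner subgroups, there were 703 and 795 TPM beside 73.0 and 259 TPM of RXR genes, or 9.63 partner transcripts for each RXR transcript in replicate 1 and 3.07 in replicate 2. This grouping was made after the values were seen. The same quotients were 8.39 and 2.85 under M4 and, for the read-based table, 15.4 and 4.37. Partner transcript exceeded RXR transcript in each library of these 3 tables, by more in replicate 1 than in replicate 2. These sums count every transcript of a gene, coding or not, so the quotients do not give numbers of receptors. Retained-intron transcripts held 28.3% and 10.9% of Nr1h2 and 24.9% and 18.2% of Rxrb in the aligned table. In the read-based table they held 55.4% and 57.3% of Nr1h2 and 30.6% and 36.1% of Rxrb.

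Nr3c1 (chr18:39410545-39519421, minus strand), the glucocorticoid receptor gene, was the only detected steroid receptor gene in the aligned tables. It measured 8.55 and 8.96 TPM (mean 8.76 ± 0.290, SD, n = 2), and its intervals of 8.04 to 9.45 and 8.01 to 11.4 TPM overlapped. The mineralocorticoid receptor gene Nr3c2 was at 0.23 and 0.04 TPM, and the progesterone receptor gene Pgr and the estrogen receptor beta gene Esr2 had no counts. Esrra (chr19:6910977-6921813, minus strand), which encodes a receptor without a known natural hormone that acts on mitochondrial genes, measured 23.7 and 37.6 TPM (mean 30.6 ± 9.84, SD, n = 2). Esrrb and Esrrg had no counts.

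Nr2c2 (chr6:92091390-92174294, plus strand), the TR4 gene, measured 4.34 and 14.6 TPM (mean 9.45 ± 7.23, SD, n = 2). Nr2c1, the TR2 gene, measured 1.29 TPM in replicate 1 but 0.80 TPM in replicate 2, so it passed 1 TPM in 1 library only and was not called detected. In the ratio of Nr2c2 to Nr2c1 the libraries were therefore far apart, since the first was 3.35 times higher and the second 0.620 times as high in replicate 2. Nr2f6 (chr8:71374123-71381960, minus strand), the EAR2 gene and a relative of the COUP receptors, measured 10.5 and 27.6 TPM (mean 19.1 ± 12.1, SD, n = 2). Its relatives Nr2f1 and Nr2f2 were at 0.01 TPM in replicate 1 and 0 in replicate 2. The sources do not say whether reads were counted by strand, and the exons of Ocel1 on the opposite strand overlap 54.4% of the exonic bases of Nr2f6. Ocel1 was at 20.6 and 16.7 TPM, so reads of these genes may not be told apart. Likewise Mrps25 overlaps 30.7% of the exonic bases of Nr2c2 on the opposite strand, and was at 6.96 and 0.710 TPM.

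The clock receptor gene Nr1d2 (chr14:18204054-18239127, minus strand), REV-ERB beta, measured 1.15 and 2.11 TPM (mean 1.63 ± 0.679, SD, n = 2) on 157 and 33 expected counts. Its lower bound in replicate 1 was 0.964 TPM, and it was the only detected receptor gene whose interval reached under 1 TPM. Nr1d1, REV-ERB alpha, was at 0.16 and 0.25 TPM, and the genes of the opposing activators, Rora and Rorb, were at 0.02 TPM or less. Among the NR4A genes, which are known as immediate early genes, Nr4a2 (chr2:57106830-57124003, minus strand) measured 1.86 and 2.97 TPM (mean 2.42 ± 0.785, SD, n = 2). Nr4a1 had no counts and Nr4a3 was at 0.09 and 0.42 TPM. Nr6a1, the germ cell factor gene, was at 0.25 and 0.31 TPM. Hnf4a, Hnf4g, Nr2e1, Nr5a1, Nr5a2, Nr0b1 and Nr0b2 had no counts in either library, and Nr2e3 was at 0 and 0.06 TPM.

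By mean TPM the order ran Nr1h2, Rxrb, Ppard, Esrra, Nr2f6, Thra, Nr2c2, Nr3c1, Rara, Nr4a2, Nr1d2. Of the 10 neighbouring pairs in this order, 6 stood in the same order in both libraries, and only 4 had ranges that did not overlap: Nr1h2 above Rxrb, Ppard above Esrra, Thra above Nr2c2, and Rara above Nr4a2. Rxrb and Ppard changed places between the libraries, as did Nr2f6 and Thra, Nr2c2 and Nr3c1, and Nr3c1 and Rara.

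To compare the libraries, 13 receptor genes had a mean expected count of 50 or more: the 11 detected genes, Nr2c1 and Nr6a1. The other 33 were not compared. Of these, 4 were over 2-fold higher in replicate 2, namely Rxrb at 3.55, Nr2c2 at 3.35, Nr2f6 at 2.62 and Rara at 2.19 times the level in replicate 1, and none was over 2-fold lower. Over all 9029 genes with that count, 15.5% were over 2-fold higher and 35.4% over 2-fold lower. By the authors' posterior intervals, 7 of the 13 were higher in replicate 2 with intervals apart (Esrra, Thra, Rara, Rxrb, Nr1h2, Nr2c2 and Nr2f6), against 29.2% of all compared genes. Another 2, Ppard and Nr2c1, were lower with intervals apart, against 45.8%, and the intervals of the remaining 4 overlapped. Of the 11 detected receptor genes 10 were higher in replicate 2. Their log2 ratios of TPM had a median of 0.68, whereas 42.9% of detected protein-coding genes were higher, with a median of -0.24. All compared genes had a median of -0.42, and relative to that value 7 of the 13 receptor genes were over 2-fold higher, Esrra, Nr1d2 and Nr4a2 being added to the 4, against 24.3% of all compared genes higher and 26.8% lower. The 8 erythroid marker genes summed to 169878 TPM in replicate 1 but 71072 TPM in replicate 2, and 7 of the 12 markers of other cell types had no counts in either library. Single values of the 8 erythroid genes ran from 8.38 to 97719 TPM, so their sums rest on the highest genes and do not describe each marker. The part of the difference between these sums in the ratios of the receptor genes was not tested.

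**Figure D2:**
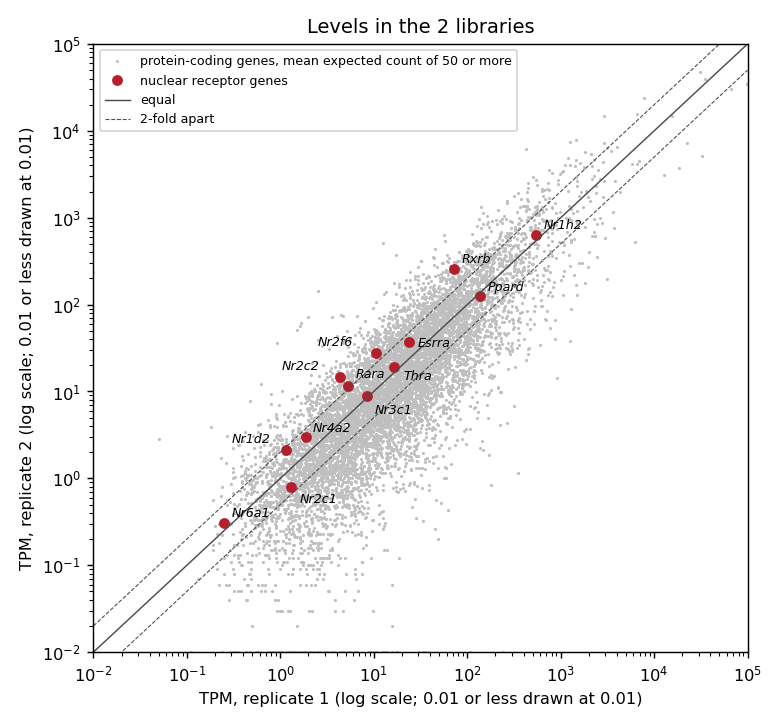
TPM in replicate 2 against TPM in replicate 1 (both log scales) for protein-coding genes with a mean expected count of 50 or more in grey and the 13 receptor genes that passed it in red; the solid line marks equal levels and the dashed lines a 2-fold difference. Rxrb, Nr2c2, Nr2f6 and Rara lie above the upper dashed line, and no receptor gene lies below the lower one.

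The split depends on the scale. In CPM, which leaves out the length correction, 3 were over 2-fold higher (Rxrb, Nr2c2 and Nr2f6) and 1 lower (Nr2c1), with Rara at 1.98 times, against 9.67% of all compared genes higher and 41.3% lower. In the unscaled table quantified from reads 15 receptor genes passed the count minimum, since Esr1 and Rorb were added. Of these 1 was higher, Rorb, and 7 were lower, against 4.54% of all compared genes higher and 72.6% lower. Nuclear protein-coding genes made up 74.1% and 23.8% of all TPM there, against 96.1% and 93.2% in the aligned table. Once it was rescaled over those genes, 7 of the 15 were higher and 1, Esr1, was lower, against 16.1% and 21% of the nuclear protein-coding genes compared. The 7 were Rxrb, Nr1d2, Rorb, Nr2c2, Nr2f6, Nr4a2 and Nr6a1, of which Rorb and Nr6a1 were not detected in the aligned table. Rxrb and Nr2c2 were over 2-fold higher in replicate 2 under 10 of the 11 scalings and tables listed, the exception being the unscaled table quantified from reads. All 11 rest on the same 2 libraries and most rescale the same aligned values, so they are not separate measurements. The median log2 ratio of all genes also moved with base composition, from -0.98 in the lowest of 20 bins of GC content to 0.77 in the highest. The median GC content of the 13 receptor genes was 57.4%, against 51.2% for all compared genes. With the bin medians taken away, Nr2c2 lay 2.26 and Rxrb 1.06 above its bin on the log2 scale. Nr2f6 and Rara, at 0.62 and 0.82, were under 2-fold, while Nr1d2 and Nr4a2, at 1.39 and 1.30, were over it. On that scale 4 of the 13 were over 2-fold higher and 0 lower, against 22.8% of the genes so compared higher and 24.8% lower.

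Esr1 (ENSMUSG00000019768.16, chr10:4611593-5005614, plus strand), the mouse estrogen receptor alpha gene, differed widely between the 2 kinds of deposited table. The tables made from alignments, under either annotation, put it at 0 and 0.02 TPM, or 0 counts and 1 count. In the table quantified from reads, summed over transcripts, it measured 1309 TPM in replicate 1 but 51.2 TPM in replicate 2, on 155112 and 6727 estimated counts. Scaled to library size, these are 1563 and 210 CPM. Rescaled over nuclear protein-coding genes it was at 1767 and 215 TPM, 8.22 times higher in replicate 1. It was the only receptor gene at 10 TPM or more in both libraries of that table and under 1 TPM in both libraries of the aligned table. Of all protein-coding genes 4 had such values, or 0.0182%.

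The Esr1 estimate fell almost wholly on a pair of transcripts that hold the end of the coding sequence. Esr1-208, a processed transcript of 1019 bases and 5 exons, was at 1259 and 39.0 TPM on 139614 and 3628 estimated counts, which is 96.2% and 76.1% of the gene's TPM. Esr1-203, a protein-coding transcript, was at 50.04 and 12.14 TPM on 15490 and 3080 estimated counts. The full-length transcript Esr1-201 had 2 and 0 estimated counts, Esr1-209 had 5 and 19, and the others had none. Of the 1019 bases of Esr1-208, 689 are coding bases of Esr1-201, in its exons 6 to 9, which run to the end of the coding sequence and encode the C-terminal part of the receptor, including part of the ligand-binding domain. Of its 989 distinct 31-base words, 898 also occur in Esr1-201 and in Esr1-203, and none occurs in a transcript of another gene. Exons 3 and 4 of Esr1-208, which are exons 7 and 8 of Esr1-201, are shown because they are wholly coding and lie in this stretch; they are given in lower case, 5′ to 3′ on the plus strand, from the GENCODE M21 transcript sequences, at chr10:4969159-4969292 and chr10:4997830-4998013.
Esr1-208 exon 3: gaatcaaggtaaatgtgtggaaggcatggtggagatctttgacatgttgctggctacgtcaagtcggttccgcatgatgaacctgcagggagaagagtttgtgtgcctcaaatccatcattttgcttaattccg
Esr1-208 exon 4: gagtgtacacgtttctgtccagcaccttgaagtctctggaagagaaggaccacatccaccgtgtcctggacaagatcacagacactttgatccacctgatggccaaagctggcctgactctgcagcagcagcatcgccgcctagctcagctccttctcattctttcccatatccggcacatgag

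**Figure D3:**
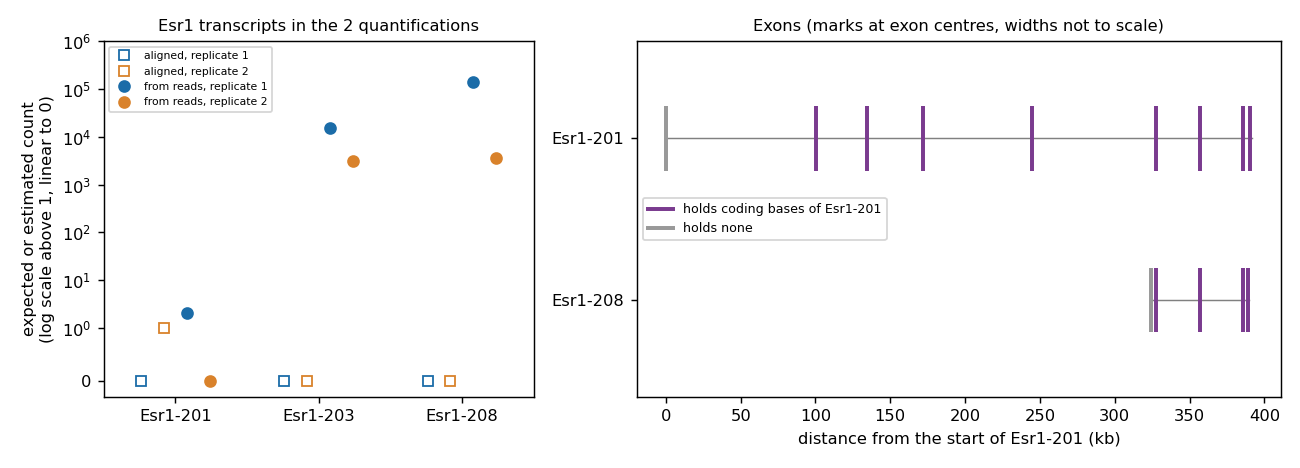
Left, counts of 3 Esr1 transcripts in the aligned table (open squares) and in the table quantified from reads (filled circles) for each library, on an axis that is linear to 1 and logarithmic above; right, exons of Esr1-201 and Esr1-208 by distance from the start of Esr1-201, marked at their centres. Esr1-208 and Esr1-203 have 3080 or more estimated counts from reads and none from alignments, and exons 2 to 5 of Esr1-208 are the last coding exons of Esr1-201.

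The fusion protein of this line carries an estrogen receptor ligand-binding domain joined to GATA1. Gata1 was at 2112 and 487 TPM in the same table, so that Esr1 stood at 62.0% of its level in replicate 1 and 10.5% in replicate 2. The sources used here do not give the sequence of the fusion, and whether the reads behind Esr1-208 and Esr1-203 come from it was not tested. A transcript of the transgene and one of the endogenous gene cannot be told apart in either table.

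Beyond gene totals, the transcript tables say which form of each receptor was recorded. The clearest case is Thra, whose forms differ at the last exon. Thra-202 encodes the hormone-binding receptor alpha1 and reads on through exon 9, at 98764278-98765111 on chromosome 11. Thra-201 encodes alpha2, which does not bind thyroid hormone. It leaves exon 9 at base 98764405 and joins an exon at 98768157-98769006, 263 bases of which lie opposite exons of Nr1d1. The ends are shown because they separate the forms; the lower-case 20 bases are shared, and the 30 bases in capitals belong to 1 form only, from the GENCODE M21 transcript sequences.
Thra-202: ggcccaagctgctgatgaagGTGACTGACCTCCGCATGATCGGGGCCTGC
Thra-201: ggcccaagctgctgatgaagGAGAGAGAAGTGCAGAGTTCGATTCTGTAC

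Thra-202 measured 10.2 TPM in replicate 1 but 5.54 TPM in replicate 2, which is 61.8% and 29.1% of the gene's TPM. Thra-201 was at 6.12 and 13.4 TPM, or 37.2% and 70.1%. The order of the forms was thus opposite in the libraries, and within each library the authors' intervals for the forms were apart, 9.41 to 10.6 against 5.47 to 6.46 TPM in replicate 1 and 4.25 to 6.20 against 11.1 to 13.8 TPM in replicate 2. The order was opposite in the table quantified from reads too, with Thra-202 at 5.72 and 1.97 TPM and Thra-201 at 3.38 and 4.02 TPM. Nr1d1 itself was at 0.16 and 0.25 TPM. In that table the processed transcript Thra-207, at 0 in the aligned table, held 5.54 and 0.951 TPM, or 36.9% and 13.7% of the gene, and the gene total was 15 and 6.95 TPM. In the aligned table the total of Thra was closer between the libraries than either form was.

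For 6 of the 11 detected receptor genes the same transcript led in both libraries, against 64.1% of the detected protein-coding genes with 2 or more transcripts. Ppard-201 held 90.1% and 96.4% of Ppard, Nr2c2-201 78.6% and 95.8% of Nr2c2, and Rxrb-201 67.3% and 74.7% of Rxrb. Nr3c1-208 held 72.3% and 93.9% of Nr3c1, and Nr3c1-206 held 16.0% and 2.46%. The annotated coding sequences of both are incomplete at an end, with 1466 and 147 bases. Nr3c1-201, Nr3c1-203 and Nr3c1-204, which share a coding sequence of 2376 bases, together held 9.36% and 3.68%. Esrra-201 held 67.9% and 56.7% of Esrra, the rest lying mostly in Esrra-204, a processed transcript of 654 bases, with 29.5% and 43.3%. Nr2f6-201, the coding transcript, held 49.2% and 79.5% of Nr2f6, and the processed transcripts Nr2f6-204 and Nr2f6-207 held 35.5% and 14.9%, and 14.8% and 5.65%. Nr2c2-202 held 19.8% and 4.19% of Nr2c2.

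In the other 5 the leading transcript differed between the libraries in the aligned table. The read-based table had a different leader in each library for Thra and Nr1d2 too, but the same one in both for Rara (Rara-204, 77.2% and 62.9%), Nr4a2 (Nr4a2-206, 61.1% and 64.0%) and Nr1h2 (Nr1h2-209). For Rara the change was between Rara-204, with 46.9% and 28.9%, and Rara-207, with 43.2% and 65.5%, which have the same coding sequence of 1386 bases. All transcripts with that coding sequence made up 93.3% and 94.4% of Rara, so the coding sequence recorded was steady where the transcript was not. Nr1d2 was led by the retained-intron transcript Nr1d2-202 in replicate 1, with 71.9%, and by the incomplete coding transcript Nr1d2-204 in replicate 2, with 61.6%. The complete coding transcript Nr1d2-201 held 15.8% and 9.95%. The Nr1d2 shares in replicate 2 rest on 33 expected counts. Nr4a2-206, a transcript marked for nonsense-mediated decay, held 18.7% and 63.0% of Nr4a2, Nr4a2-202 held 46% and 0, and Nr4a2-201 held 35.3% and 37.0%.

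Nr1h2, the most abundant receptor gene in the aligned tables, was divided over many transcripts. The largest shares were those of Nr1h2-203 in replicate 1, with 27.6% against 17.6%, and of Nr1h2-207 in replicate 2, with 26.5% against 12.4%. Nr1h2-216 held 0.0865% in replicate 1 and 23.0% in replicate 2, and Nr1h2-214, a retained-intron transcript, 13.1% and 0.491%. The annotated coding sequences of Nr1h2-207 and Nr1h2-216 are incomplete at an end. Nr1h2-202 and Nr1h2-204 held 12.4% and 7.25%, and 14.7% and 10.2%. The read-based table put 48.8% and 52.3% of the gene in Nr1h2-209, a retained-intron transcript of 342 bases, which held 1.03% and 0.468% in the aligned table. The gene total of Nr1h2 was high in both kinds of table, at 544 and 639 against 739 and 197 TPM, but its division over transcripts differed between them. Retained-intron transcripts held 10% or more of TPM in both libraries in 3 of the 11 receptor genes, Rxrb, Nr1d2 and Nr1h2, against 19.3% of detected protein-coding genes. For Rxrb this was nearly all Rxrb-204, with 22.5% and 18.2%.

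**Figure D4:**
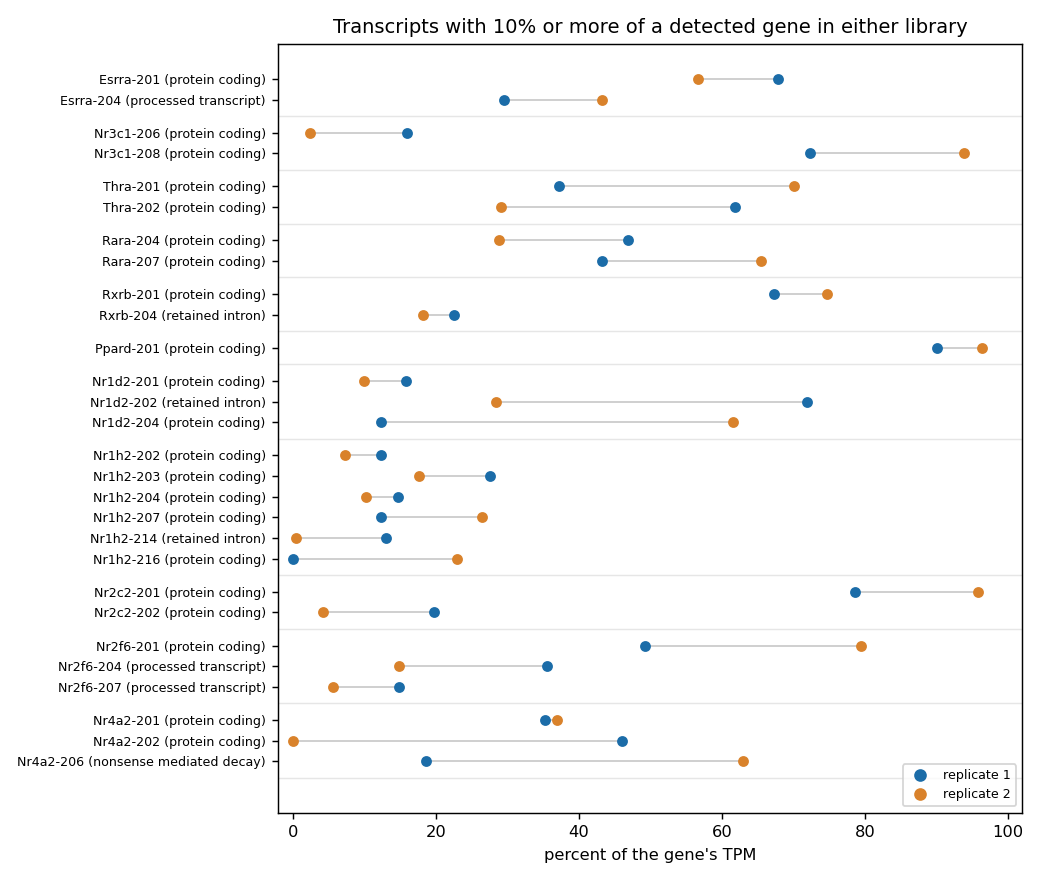
Percent of a gene's TPM held by each transcript with 10% or more in either library, for the 11 detected receptor genes, with 1 point for each library. Ppard-201 stays at 90.1% or more, while Thra-201 and Thra-202 change places.

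Genes that act with the receptors or under them were read from 10 lists, 112 genes in all, of which 64 were detected (57.1%). A few undetected genes are named as well, chosen after their values were seen. The cofactors were widely present. Of 17 coactivator genes 15 were detected, led by Carm1, an arginine methyltransferase, at 91.2 and 126 TPM, Ncoa6 at 37.4 and 96.9 TPM and Ncoa7 at 23.9 and 56.8 TPM. The coactivator gene Ppargc1a had no counts while its paralog Ppargc1b was at 2.62 and 4.11 TPM. Of 11 corepressor genes 10 were detected, led by Gps2 at 200 and 203 TPM, Ncor1 at 79.0 and 65.6 TPM and Ncoa5 at 34.4 and 44.4 TPM.

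All 10 genes of the steroid receptor chaperone cycle were detected, among them Hspa8 at 471 and 996 TPM, Hsp90ab1 at 178 and 94.1 TPM and Fkbp4 at 110 and 129 TPM. The list median was 117 TPM in replicate 1 but 27.2 TPM in replicate 2, and all genes except Hspa8 and Fkbp4 were lower in replicate 2. Lower levels there were not particular to this list, since 42.9% of detected protein-coding genes were higher in replicate 2. Only the corepressor list had a higher median in replicate 2, at 6.48 and 13.7 TPM. Of 10 genes known to respond to the glucocorticoid receptor 8 were detected, the highest being Zfp36l2 at 36.0 and 205 TPM, Zfp36 at 37.1 and 61.8 TPM and Dusp1 at 19.6 and 16.4 TPM. All of these have other known inputs. Of 8 genes of mitochondrial metabolism known as targets of the estrogen-related receptors 7 were detected, among them Atp5b at 1354 and 1145 TPM and Cox5a at 532 and 527 TPM.

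The lists for the LXR and PPAR receptors were uneven. Of 10 genes of oxysterol supply and LXR response 2 were detected, both high: Srebf1, the lipogenic transcription factor, at 231 and 293 TPM and Lpcat3, a phospholipid-remodelling enzyme, at 209 and 173 TPM. The other 8 were undetected, and Abca1, the cholesterol exporter, was at 0.11 and 0.02 TPM. Of these 8, 6 had no counts: Ch25h, Cyp27a1, Cyp46a1, Cyp7b1, Abcg1 and Smpdl3a. The list mixes genes of oxysterol metabolism with LXR response genes, so its count does not measure LXR response. Of 10 PPAR target genes 4 were detected, with Plin2, a lipid droplet coat protein, at 66.7 and 67.8 TPM, Hadha at 25.9 and 15 TPM and Cpt1a at 6.57 and 4.54 TPM. Another 5, among them Pdk4, Angptl4 and Cd36, had no counts in either library.

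Few genes of the lists named for ligand supply were detected. The lists mix genes of ligand synthesis, transport and breakdown, so their counts do not measure supply. Of 12 genes of the retinoid list 3 were detected, among them Dhrs3 at 12.3 and 3.6 TPM and Rdh10 at 1.54 and 1.87 TPM. Of 12 genes of the thyroid and steroid hormone list 1 was detected, the amino acid and thyroid hormone transporter gene Slc16a10, at 31.1 and 69.8 TPM. Of 15 clock genes around the REV-ERB and ROR receptors 6 were detected, led by Tef at 87.4 and 12.2 TPM, Cry2 at 17.5 TPM in both libraries and Per1 at 8.39 and 12.5 TPM. Cry1 had no counts. These lists are short and partly overlap, and their genes were not chosen at random, so their shares are descriptions beside the 33.1% of all protein-coding genes.

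**Figure D5:**
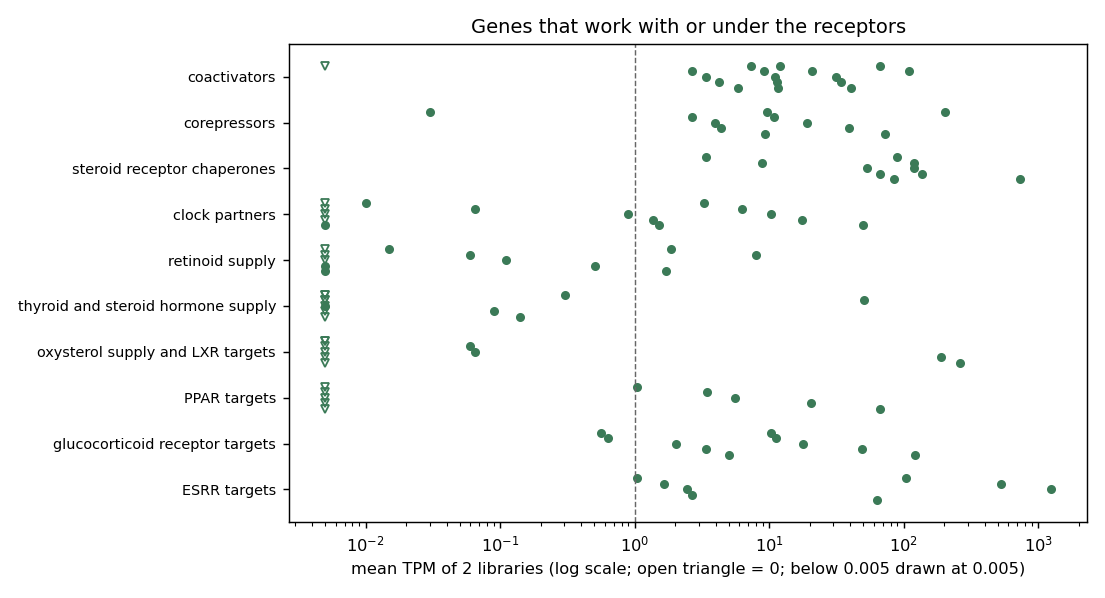
Mean TPM of the 2 libraries (log scale) for the genes of the 10 lists, with 1 point for each gene, open triangles for 0 and a dashed line at 1 TPM. Coactivators, corepressors, chaperones and targets of the glucocorticoid and estrogen-related receptors lie mostly above the line, and the lists named for ligand supply mostly below it.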

How the data were processed

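Polyadenylated RNA of 2 libraries of G1E-ER4 cells was analysed. The authors deposited gene and transcript tables made from alignments to mm10, with GENCODE M21 and M4, that hold expected counts, TPM, posterior mean TPM and the bounds of a posterior TPM interval (recorded here as a signal; its probability level is not stated), per the file headers. They also deposited a transcript table quantified directly from reads with estimated counts and TPM, per the labels. The sources used here name no tools, versions or strand setting for them. M21 gene TPM was the main scale and each transcript's percent of its gene was computed from the deposited TPM. Gene symbols came from the read-based table and were found for all 46 genes; M4 was matched by gene ID without version. Detection meant 1 TPM in both libraries; libraries were compared where the mean expected count was 50 or more, with a ratio above 2. Named genes were all members, the 3 highest detected genes of each list by mean TPM (some are not reported here), and transcripts with 10% of a detected gene in either library. Expected counts were rounded for edgeR 4.0.16 TMM factors and DESeq2 1.42.0 size factors; Python and pandas did the rest. A 2-fold cutoff was also run on simulated counts scaled to library size, with larger changes planted and counting error only. That check does not cover TPM ratios or the spread between these libraries. Members, lists and subgroups were chosen with earlier results of these data known. Alternatives were other tables, scalings, thresholds and single replicates; GC correction, rescaling of the read-based table, centring on the median and the subgroup count were added after seeing the data. Rows without a mouse gene ID and the M4 transcript tables were left out, and signal tracks were not analysed here.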

Additional observations from a re-analysis of the deposited data

Results flagged for a closer look

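Of the receptor genes at or under 3 counts in both libraries of the aligned table, 4 had more than 3 estimated counts in both libraries of the table quantified from reads. Another 9 had them in 1 library only, and 13 in neither. The share of all genes with such counts is not given here, so these numbers have no background beside them. Esr1 had 155112 estimated counts in replicate 1 and 6727 in replicate 2. The others were slight: Rorb had 19 and 93 estimated counts (0.0174 and 0.0998 TPM), Rxra 6 and 4 (0.0387 and 0.0214 TPM) and Esrrg 4 and 6 (0.0853 and 0.104 TPM). Of these 4, only Esr1 reached 1 TPM. Among the other 9, the highest was Nr2e1, with 1 and 23 estimated counts. The cause was not tested.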

How the results depend on the processing

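No paired analysis was possible because there is 1 group. Without replicate 1 or 2, the detected count was 11 to 12 receptor genes, 64 to 68 list genes and 10 to 11 subgroups with 1 detected gene. Receptor genes detected numbered 8 to 13 over the alternatives; read-based quantification lost Nr1d2 and gained Esr1. At 5 TPM 42 list genes remained detected. Receptor genes over 2-fold apart numbered 4 of 13 in the main count. They numbered 8 of 15 in the table quantified from reads (1 higher, 7 lower, against 4.54% and 72.6% of genes). After its rescaling they numbered 8 of 15 (7 higher, 1 lower, against 16.1% and 21% of genes). With a count minimum of 10 they numbered 7 of 17 (5 higher, 2 lower, against 17.0% and 36.7%). Relative to the median of compared genes 7 of 13 were higher (against 24.3% higher and 26.8% lower). The median log2 ratio of detected receptor genes reversed to -1.06 in the table quantified from reads, where detected protein-coding genes had -1.62. It was 0.91 with posterior means, 0.85 with M4, 0.72 and 0.58 after rescaling the aligned and the read-based table, 0.28 in CPM, 0.74 with TMM, 0.83 with DESeq2 size factors, 0.53 and 0.67 with pseudocounts of 1 and 0.1 TPM, and 0.69 with the GC trend removed, against 0.68. Over the same settings all detected protein-coding genes ran from -0.51 to 0.11. The cause of these moves was not tested. Of 13 single-gene levels (the detected genes, Nr2c1 and Esr1), 2 moved by more than the SD of the libraries with M4, 3 with posterior means and 8 in the table quantified from reads. Depth limits low genes in replicate 2, where Nr6a1, Nr2c1 and Nr1d2 had 17, 28 and 33 expected counts, and 17 of the 35 undetected genes had an upper bound of 1 TPM or more there, against 1 in replicate 1.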
